A study of Mus musculus with 18 samples.

Results

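The comparison described here set mouse cells that received siRNA against CYP1B1 beside cells that received scrambled siRNA, both under estradiol (E2). It used 6 of the 18 RNA sequencing libraries of the study, 3 per siRNA, and every gene that averaged 1 CPM (a read count scaled to a fixed library total) or more across those 6 libraries, which gave 11831 of 15288 genes. Genes next to this limit were Veph1, Gm15663 and Tspyl3 (1 to 1.004 CPM) on the inside and A430046D13Rik, Rnf223 and Sowahb (0.9953 to 0.9973 CPM) on the outside. The study crossed these 2 siRNAs with vehicle, E2 and 16aOHE, an estrogen metabolite, in 3 libraries each.

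In the scrambled E2 group, cells in 60 mm dishes were transfected by means of Lipofectamine 2000, a cationic lipid reagent, with 5 ul of scrambled siRNA taken from a 10 uM stock. In the siCYP1B1 E2 group the same amount of siRNA against CYP1B1 was used. Both groups then received 1 uM E2 at 24 hours after transfection and were kept in it for 24 hours in 5% serum. The remaining groups differed only in the added agent, which was vehicle or 1 uM 16aOHE. Every group was thus transfected, and no group without siRNA was measured. The labels name no strain, sex or passage. They also leave unsaid whether the 3 libraries per group are independent cultures, so the p-values capture variation among libraries alone, some of which may be technical. No siRNA sequence was given in the sources used here.

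CYP1B1 is a cytochrome P450 that hydroxylates estradiol, chiefly to catechol estrogens, and it also acts on polycyclic hydrocarbons. Its gene is a target of the aryl hydrocarbon receptor, a ligand-activated transcription factor. An siRNA works by guiding Argonaute proteins to an mRNA with a fully matching site, and it can also lower other mRNAs that match only its seed, a short stretch near the 5′ end of the guide strand, most often in the 3′ UTR.

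In the 6 libraries 1 CPM stood for an estimated 22.1 to 26.7 reads, as read from the steps between low values. Log-scale correlations were 0.9965 to 0.9978 within a group and 0.9922 to 0.9947 between the groups. The first principal component of the 6 libraries, with 49.6% of the variance, separated the siRNAs. The second, with 17.5%, set library 1 of each group apart from the other 2.

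Markers of the labelled cell type were checked before the results, because the samples are labelled as pulmonary microvascular endothelial cells while the series title names smooth muscle cells. Of the endothelial markers Vwf was listed at 0 in all 6 libraries and Pecam1 averaged 0.0138 CPM, and 7 markers passed the limit of 1 CPM. The highest of these, Cd34, an antigen of endothelial, progenitor and some mesenchymal cells, averaged 124 ± 7.86 CPM in scrambled libraries (SD, n = 3). Myh11, a defining gene of smooth muscle, averaged 0.0801 CPM, and Ptprc, which marks leukocytes, was listed at 0. Most mesothelial genes of the list were abundant: Msln, a surface protein of mesothelium, averaged 1585 CPM and Upk3b 772 CPM in scrambled libraries. Calb2, also on that list, averaged only 0.0510 CPM over the 6 libraries. The defining endothelial markers were thus absent or near 0 in these cells.

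Cyp1b1 itself (chromosome 17, 79706953 to 79715041, minus strand, mm10) was lowered only slightly. It stood at 117, 119 and 117 CPM in the scrambled libraries and at 100.4, 103.6 and 103.9 CPM in the siCYP1B1 libraries. The groups did not overlap, and the mean fell by 12.7%, from 117.6 ± 1.06 to 102.6 ± 1.95 CPM (SD, n = 3). The log2 difference was -0.19 (95% interval -0.27 to -0.12, adjusted p = 0.000356 in limma fitted to all 18 libraries). The exact permutation test over the 6 libraries gave p = 0.1, the smallest that 20 splits allow. Of the 1161 genes called lower, 792 (68.2%) fell by more than Cyp1b1.

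In all, 2511 of the 11831 genes (21.2%) passed an adjusted p of 0.05, of which 1350 (11.4% of genes tested) were higher and 1161 (9.81%) were lower with siCYP1B1. Differences were mostly small, with a median size of 0.22 (log2) among the called genes. Log2 differences were taken on log2(CPM + 1) and understate the change of genes near 1 CPM. Differences of at least 0.5 were mostly decreases, 154 against 46 increases. The median difference over all genes tested was 0.03. The share of increases among the calls depended on the scaling: it was 53.8% with the deposited CPM, 46.6% after quantile normalization, and median-of-ratios factors gave 41.2%. The values of the 3 libraries per group did not overlap for 36.6% of genes (4336 of 11831).

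**Figure D1:**
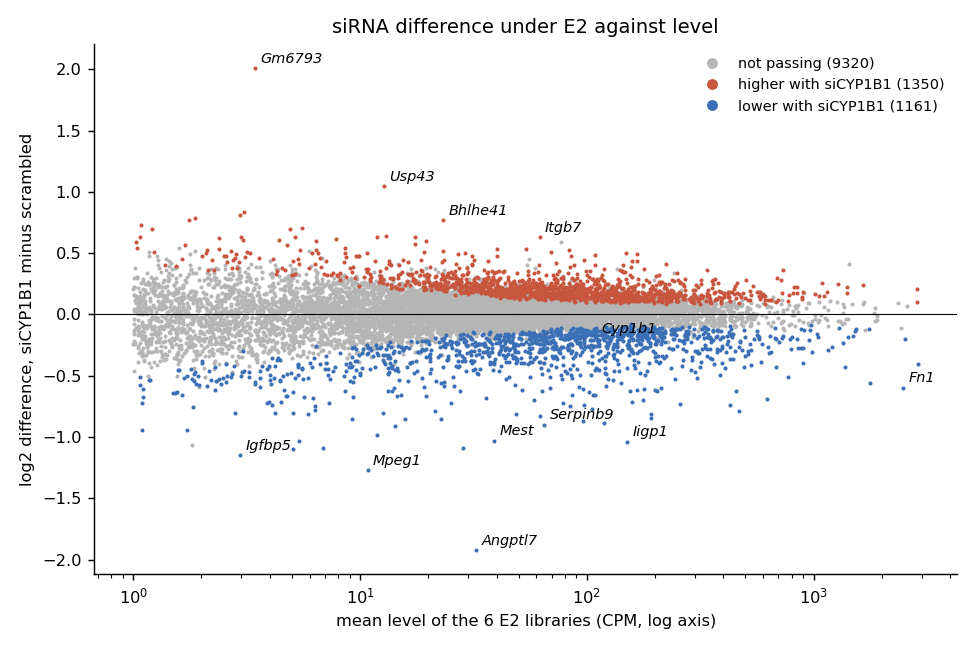
Log2 difference under E2 (siCYP1B1 minus scrambled, vertical axis) against the mean level of the 6 libraries (CPM, log axis), 1 point per gene, with genes passing in red (1350 higher) or blue (1161 lower). The points farthest below 0 are Angptl7 (-1.92) and Mpeg1 (-1.27), and Cyp1b1 (-0.19) lies inside the dense blue band.

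The largest fall was in Angptl7, which encodes an angiopoietin-like protein secreted into the matrix. It stood at 50.4, 52.1 and 54.1 CPM in scrambled libraries and at 11.8, 14.5 and 13.0 CPM with siCYP1B1. The means were 52.2 ± 1.85 and 13.1 ± 1.37 CPM, a 3.99-fold lower level (log2 -1.92, SE 0.117, adjusted p = 2.35e-10). The gap between the groups was wide. Angptl7 and the genes of largest difference that follow were picked among called genes whose groups do not overlap. That the groups of these genes are separate was therefore set by the choice.

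Mpeg1, the gene of the pore-forming protein perforin-2, stood at 15.2, 16.3 and 15.5 CPM against 5.57, 5.85 and 6.33 CPM (log2 -1.27, SE 0.0808, adjusted p = 4.51e-10). It is best known from macrophages. Of the leukocyte markers Ptprc was listed at 0, and Itgam (0.0342 CPM) and Csf1r (0.745 CPM) were below the limit. The summed level of the leukocyte list was 32.5 to 34.6 CPM in scrambled and 32.9 to 35.7 CPM in siCYP1B1 libraries. That sum came mostly from Cd14 (20.6 against 22.1 CPM) and Cd68 (12.4 against 11.7 CPM). A part of leukocytes in the fall of Mpeg1 was not tested. Mest, an imprinted gene expressed from the paternal copy, stood at 49.4, 52.5 and 55.6 CPM against 23.1, 25.8 and 26.7 CPM (log2 -1.03, SE 0.0605, adjusted p = 1.67e-10). The groups of both genes lay far apart.

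Krt15, a type I keratin, fell from 39.0 ± 4.19 to 17.8 ± 2.46 CPM (log2 -1.09). Prss12, a secreted serine protease, fell from 9.73 ± 0.577 to 4.06 ± 0.644 CPM (log2 -1.09), and Tmem255a, a membrane protein gene, from 7.26 ± 0.632 to 2.86 ± 0.347 CPM (log2 -1.10). Plac8 (log2 -1.03), the integrin subunit Itgb8 (-0.98) and Gdf6, a ligand of the BMP family (-0.91), followed. Trf, which encodes the iron carrier transferrin, stood at 146, 159 and 161 CPM against 81.6, 80.7 and 88.5 CPM (log2 -0.88, adjusted p = 2.05e-09). Serpinb9, an inhibitor of granzyme B, stood at 81.3, 82.8 and 91.1 CPM against 44.9, 46.3 and 44.1 CPM (log2 -0.90, adjusted p = 6.72e-11). All of these were lower in each siCYP1B1 library than in any scrambled library, as the rule that picked them required.

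Among the increases, Usp43, a deubiquitinase gene, stood at 8.59, 8.80 and 6.55 CPM in scrambled and at 18.8, 16.5 and 16.98 CPM in siCYP1B1 libraries, a 2.18-fold higher mean (log2 1.04, SE 0.101, adjusted p = 2.06e-07). Bhlhe41, a transcriptional repressor of the circadian clock, stood at 17.8, 16.2 and 16.8 against 30.1, 28.7 and 29.9 CPM (log2 0.77, SE 0.0763, adjusted p = 2.85e-07). Itgb7, an integrin subunit, stood at 43.8, 50.4 and 51.0 against 71.2, 73.9 and 81.1 CPM (log2 0.63, SE 0.0622, adjusted p = 2.77e-07). In each of these 3 genes the groups lay clearly apart.

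Egln3, an oxygen-sensing prolyl hydroxylase, rose from 13.4 ± 1.25 to 21.4 ± 2.64 CPM (log2 0.64), and Qtrt1, a subunit of the enzyme that puts queuosine into transfer RNA, from 9.92 ± 0.983 to 16.1 ± 2.12 CPM (log2 0.64). Cnga3, a cyclic nucleotide-gated channel subunit, rose from 3.99 ± 0.664 to 7.11 ± 0.698 CPM (log2 0.70), and Dancr, a long noncoding RNA, from 3.52 ± 0.982 to 6.26 ± 0.943 CPM (log2 0.69). Rragd, a GTPase that relays amino acid supply to mTORC1, rose from 1.97 ± 0.687 to 4.20 ± 0.233 CPM (log2 0.84). Nipal1 (0.79), Ttc39a (0.77), Fam69c (0.73), Osbp2 (0.70), the complement receptor gene C3ar1 (0.63) and Rhov (0.63) rose from at most 2.14 CPM, and the call of Ttc39a was lost without library 1 of siCYP1B1 E2. Of these, Fam69c (0.563 CPM), Osbp2 (0.680 CPM) and Rhov (0.621 CPM) averaged below 1 CPM in scrambled libraries and passed the limit only through the siCYP1B1 libraries, where they are high. The predicted gene Gm6793, named here after its values were seen, had the largest rise: it stood at 2.06, 3e-05 and 0.333 CPM against 9.59, 2.53 and 6.10 CPM (log2 2.01, SE 0.428, adjusted p = 0.00199), with wide spread inside both groups. It too averaged below 1 CPM in scrambled libraries (0.796 CPM) and was tested only because of its siCYP1B1 level.

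**Figure D2:**
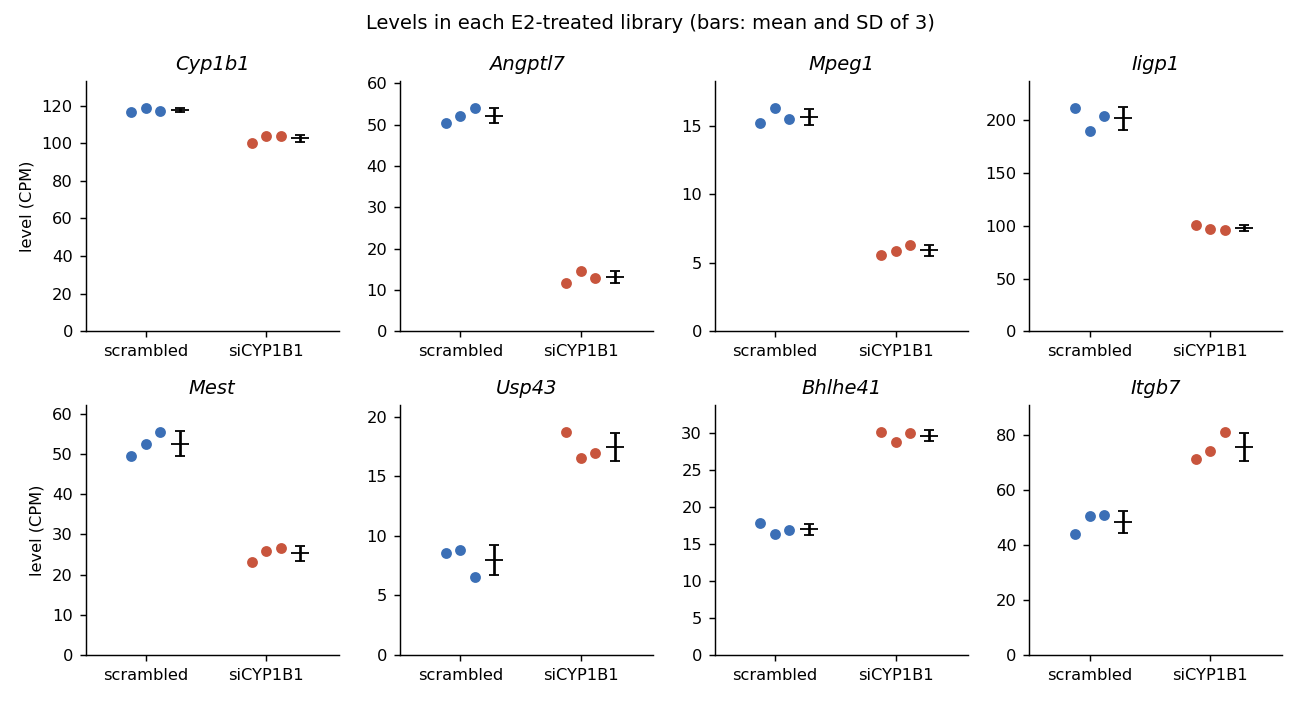
Level in CPM of 8 genes in each of the 3 scrambled (blue) and 3 siCYP1B1 (red) libraries under E2, with black bars for the mean and SD, and each vertical axis starting at 0. The groups do not overlap in any panel, which for the genes other than Cyp1b1 was set by the rule that picked them. The mean was 12.7% lower for Cyp1b1 and 3.99-fold lower for Angptl7.

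The longest annotated 3′ UTR of each tested gene that has one was searched for heptamers, whether or not these cells express that transcript. The heptamer AAAGTCA was already known from earlier results over all libraries, the 6 described here included, so its rank is a description. On the vehicle and 16aOHE libraries it was the first of 16384 heptamers by its share among genes lower in both arms (30.7% of 745) minus that among genes higher in both (7.61% of 696). In the E2 libraries it also ranked first, with a difference between these shares of 22.7 percentage points. The next heptamers in the other arms were rich in A and T and had smaller E2 differences. The nearest was TTTTAAA (19.5 points, rank 2 under E2), and TTTAAAA had 18.8 points. AAAGTCA was held by 30.3% of the 1137 lower genes with an annotated 3′ UTR, by 7.69% of the 1327 higher genes and by 15.8% of all 11391 genes. Its reverse complement was held by 24.0% of the lower and 16.8% of the higher genes. Some sites in genes with larger falls are shown with 10 bases on either side, read 5′ to 3′ along the transcript, with the heptamer in capitals. They lie at chr13:33016445-33016471 (plus strand) in Serpinb9, chr10:97518004-97518030 (plus) in Dcn, chr1:71585836-71585862 (minus) in Fn1, chr11:49651588-49651614 (plus) in Flt4 and chr12:119163028-119163054 (minus) in Itgb8, all on GRCm38 with GENCODE M21 transcripts.
Serpinb9: tcttgtgtatAAAGTCAataatttata
Dcn: cttttgacatAAAGTCAaatgccgccg
Fn1: cttgagcaggAAAGTCAcccagacacc
Flt4: tttctatctcAAAGTCAcagaggagga
Itgb8: agtataatatAAAGTCAcaggagaaga

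Genes with more sites were lower. The 9596 genes without the heptamer had a median log2 difference of 0.04, the 1475 genes with 1 site -0.02 and the 320 genes with 2 or more -0.07. Of these 3 sets 8.25%, 17.8% and 25.6% were called lower, and 12.8%, 6.17% and 3.44% higher. Lower genes also had longer 3′ UTRs, with a median of 1682 bases against 867 in higher genes, so the sets were divided by UTR length. In 4 bins of equal size from the shortest to the longest, 16.9%, 19.3%, 20.8% and 18.6% of genes with a site were called lower, against 5.14%, 8.43%, 10.1% and 10.4% of genes without one. Cyp1b1 and Serpinb9 hold 2 sites each. Angptl7, Mpeg1, Igfbp5 and Mest hold none, and of the 147 genes with a UTR that fell by at least 0.5, 40 (27.2%) hold one. A part of the siRNA itself in these differences was not tested, because its letters are unknown here.

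**Figure D3:**
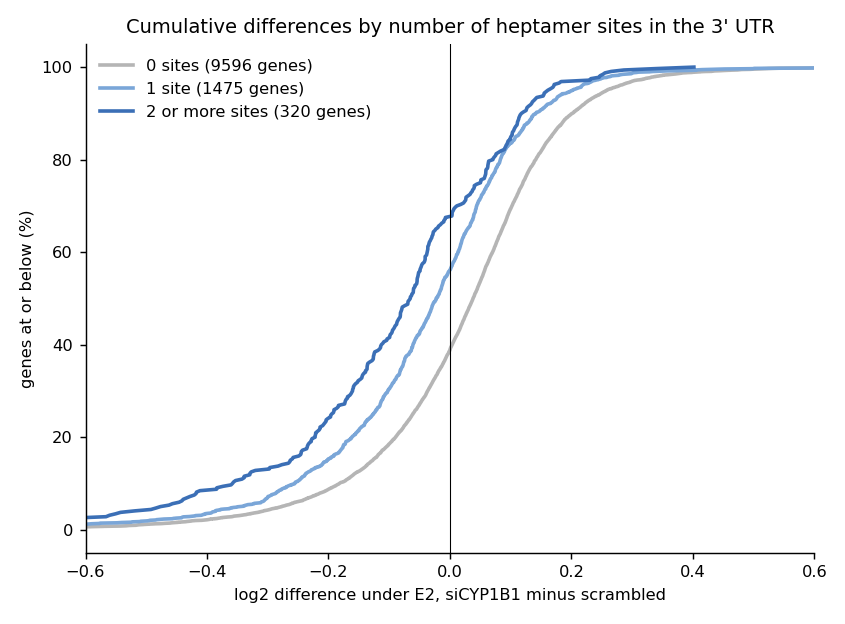
Share of genes (%) at or below each log2 difference under E2, for genes with 0 (grey), 1 (light blue) and 2 or more (dark blue) AAAGTCA heptamers in the 3′ UTR. The curves shift to the left with the number of sites, with medians of 0.04, -0.02 and -0.07.

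Counts of gene lists, here and below, are to be read beside the 21.2% of all tested genes that were called (11.4% higher and 9.81% lower). Genes of estrogen handling moved in both directions and by little. Esr1, the gene of estrogen receptor alpha, stood at 14.7, 19.7 and 17.3 CPM against 13.5, 13.3 and 15.3 CPM. These groups overlap, and its adjusted p of 0.0499 (log2 -0.27) was lost in 9 of the alternative settings tried, including those without library 2 or 3 of scrambled E2 or library 1 or 2 of siCYP1B1 E2. Esrra, an orphan receptor that drives mitochondrial genes, stood at 63.7, 63.6 and 73.0 against 79.5, 80.5 and 81.7 CPM (log2 0.27, adjusted p = 0.00133). Of 20 estrogen receptor target genes 4 were higher and 4 lower, with a median of 0.00. The higher count was 1 without library 1 of siCYP1B1 E2 and the lower count 2 without library 2 or 3 of scrambled E2. Igfbp4, which binds insulin-like growth factors, had the largest of these differences (187 ± 5.26 to 138 ± 7.34 CPM, log2 -0.44), while Myc rose from 113 ± 4.21 to 134 ± 9.82 CPM (log2 0.25). Among 10 estrogen metabolism genes, Cyp1b1 and Hsd17b7 (log2 -0.23, lost without library 3 of siCYP1B1 E2) fell and Hsd17b10 rose (0.20). The last call was lost with either other scaling and without library 1 or 2 of scrambled E2 or library 2 or 3 of siCYP1B1 E2. In the aryl hydrocarbon receptor pathway 0 of 9 genes rose and 3 fell: Cyp1b1, the receptor gene Ahr (30.3 ± 1.54 to 24.4 ± 0.459 CPM, log2 -0.30) and Ugt1a6a, a glucuronosyltransferase (log2 -0.29). Of these 3, Cyp1b1 is the siRNA target itself. The share called in either direction was 33.3% in this list, 40.0% among the estrogen receptor targets and 30.0% among the estrogen metabolism genes.

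Of 41 interferon response genes, 24 were lower and 1 was higher, with a median log2 difference of -0.17. Iigp1, an interferon-inducible GTPase, stood at 212, 190 and 204 CPM against 101, 96.9 and 95.9 CPM (log2 -1.04, SE 0.0482, adjusted p = 1.22e-11). The groups lay far apart. Stat2, a transcription factor that type I interferon receptors activate, stood at 241, 216 and 194 against 153, 139 and 134 CPM (log2 -0.60, adjusted p = 1.09e-05), and the GTPase gene Irgm1 at 561, 532 and 568 against 368, 358 and 351 CPM (log2 -0.62, adjusted p = 3.90e-11). The higher gene was Ifi27 (134 ± 3.60 to 181 ± 3.06 CPM, log2 0.43), named outside the rule for list members because it was the only rise. The remaining 16 did not pass, among them the classical induced genes Ifit1 (242 against 230 CPM), Rsad2 (144 against 154 CPM) and Oas2 (173 against 184 CPM), whose values are given after they were seen.

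Promoters of these genes often carry the interferon-stimulated response element, searched on both strands as a pair of GAAA runs with any 2 bases between them, from 250 bases before to 50 after the start in the RefSeq promoters of GRCm38.p6. It was found in 3.93% of the 9320 tested genes with a promoter there and in 20 of 31 matched interferon genes, which were 14 of 19 lower genes and 6 of 12 that did not pass. Among all lower genes 7.15% held it, and among all higher genes 3.04%. Windows around the match are shown for genes with larger falls, along the gene's own strand, with the matched letters in capitals (TTTC runs where the match is on the other strand). They lie at chr11:48871425-48871454 (minus strand) for Irgm1, with 2 overlapping matches, the nearer of which begins 24 bases before the start, chr10:128270266-128270295 (plus) for Stat2, chr5:92349083-92349112 (minus) for Cxcl10, chr19:34583397-34583426 (plus) for Ifit3 and chr3:142620594-142620623 (plus) for Gbp2.
Irgm1: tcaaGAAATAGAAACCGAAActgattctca
Stat2: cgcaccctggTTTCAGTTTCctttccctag
Cxcl10: tcacgctttgGAAAGTGAAActtacctcac
Ifit3: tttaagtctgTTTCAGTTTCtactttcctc
Gbp2: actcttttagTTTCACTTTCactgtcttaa
A match is a run of letters and does not show binding. In the same order as printed, these 5 genes had log2 differences of -0.62, -0.60, -0.57, -0.53 and -0.46.

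Other genes of innate immunity were lower in part. Of 10 genes on the complement list 5 fell and 1 rose, with a median of -0.24. C1s1, a protease of the classical pathway, fell from 5.19 ± 0.728 to 2.79 ± 0.535 CPM (log2 -0.71). C4b fell from 2.59 ± 0.294 to 0.869 ± 0.127 CPM (-0.94), and its level is uncertain because C4a is nearly identical. It passed the limit of 1 CPM only through the scrambled libraries, where it is high. The rise on this list was that of C1qtnf6 (log2 0.14), a call lost with either other scaling and without any 1 of the 6 libraries. C1qtnf6 and C1qtnf1 (-0.40, among the 5 falls) are C1q/TNF-related genes and not complement components. Of 18 NF-kB and chemokine genes 5 fell and 2 rose. The growth factor gene Csf1 (log2 -0.28), the chemokine Cx3cl1 (-0.28) and Il1rl1, the receptor of interleukin 33 (3.09 ± 0.368 to 1.87 ± 0.360 CPM, -0.51), were among the 5, and the count of lower genes was 3 when library 2 or 3 of scrambled E2 or library 1 or 2 of siCYP1B1 E2 was left out.

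Matrix genes were lower in large part. Of 18 collagen chains 9 fell and 2 rose, with a median of -0.28. Col3a1, a fibrillar collagen, stood at 2098, 2167 and 2083 against 1393, 1446 and 1464 CPM (log2 -0.56, SE 0.0338, adjusted p = 2.08e-10). Col6a2, of the beaded collagen VI, stood at 110.0, 127 and 111 against 70.05, 76.2 and 81.3 CPM (-0.61), and Col8a1 at 93.9, 93.1 and 88.2 against 63.5, 61.4 and 65.5 CPM (-0.52). Each of these 3 was lower in every siCYP1B1 library. Col7a1, of anchoring fibrils, rose from 1.84 ± 0.606 to 4.05 ± 1.49 CPM (0.81, adjusted p = 0.0211), and this call was lost without library 3 of scrambled E2 or library 1 or 2 of siCYP1B1 E2.

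Of 27 genes for crosslinking enzymes, proteoglycans and glycoproteins of the matrix 14 fell and 1 rose, with a median of -0.19. Dcn, the small proteoglycan decorin, stood at 296, 340 and 334 against 185, 198 and 200 CPM (log2 -0.73, adjusted p = 2.48e-08). Fn1, fibronectin, stood at 2807, 3514 and 2642 against 1977, 1841 and 2069 CPM (-0.60, adjusted p = 1.38e-05), with library 2 of the scrambled group the highest. Ogn, another small proteoglycan, fell from 125 ± 4.40 to 80.3 ± 3.19 CPM (-0.63), and Loxl1, an elastin-crosslinking oxidase, from 5.66 ± 0.0801 to 2.82 ± 0.357 CPM (-0.80). Of 28 matrix proteases and inhibitors 8 fell and 1 rose. The metalloproteinase inhibitors Timp2 (3295 ± 40.5 to 2489 ± 33.7 CPM, -0.40) and Timp3 (1573 ± 33.5 to 1172 ± 44.5 CPM, -0.43) and the aggrecanase Adamts5 (-0.48) fell, whereas the protease Htra3 rose (0.46, lost without library 2 of scrambled E2 or library 1 or 3 of siCYP1B1 E2).

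Markers of mesothelial and fibroblast-like cells moved with the matrix genes. Of 8 mesothelial markers 7 fell, with a median of -0.43. Upk3b, a uroplakin of mesothelium, stood at 765, 747 and 803 against 465, 484 and 485 CPM (log2 -0.69, adjusted p = 6.21e-11), and Lrrn4 at 59.9, 65.0 and 61.3 against 34.7, 34.2 and 36.0 CPM (-0.81). Wt1, a transcription factor of mesothelium, fell from 271 ± 3.78 to 201 ± 7.33 CPM (-0.43), and the gene that did not pass, Krt19, was at 332 CPM in both groups. The summed level of the mesothelial list was 4779 to 4945 CPM in scrambled and 3774 to 3834 CPM in siCYP1B1 libraries. That of the fibroblast and pericyte list, which shares Dcn, Col3a1 and Col1a1 with the matrix lists, was 3972 to 4438 against 3209 to 3316 CPM, with 3 of 5 genes lower and Rgs5 at 0.0690 CPM. Fewer cells of a type and less RNA per cell cannot be told apart in bulk RNA, and the part of cell composition in the matrix differences was not tested.

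Of 7 endothelial markers 3 fell: Cd34 (115, 127 and 131 against 66.7, 65.5 and 70.6 CPM, log2 -0.87, adjusted p = 6.84e-09), the adhesion molecule Esam (15.7 ± 1.36 to 10.9 ± 0.265 CPM, -0.49) and the VEGF receptor Flt1 (70.9 ± 3.03 to 54.0 ± 2.32 CPM, -0.39). The list summed to 222 to 230 CPM in scrambled and 144 to 150 CPM in siCYP1B1 libraries. Of 5 smooth muscle markers only Acta2 passed (15.6 against 12.3 CPM, -0.32, lost without library 1 or 3 of scrambled E2 or library 3 of siCYP1B1 E2), and the list summed to 1097 to 1121 against 1064 to 1075 CPM. That sum came mostly from Cald1 (1002 against 965 CPM) and Smtn (90.8 against 86.5 CPM). Myh11, Cnn1, Lmod1 and Des were below the limit of 1 CPM. Of 3 epithelial markers 0 passed, and they were near the limit, with Krt18 at 1.35 against 0.857 CPM.

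Growth factor systems showed falls in single members. Among 9 genes of VEGF ligands and receptors, Flt1, Flt4 (81.4 ± 2.90 to 56.9 ± 2.19 CPM, log2 -0.51), the receptor of the lymphatic ligands, and the co-receptor Nrp2 (-0.23) fell, and the ligand Vegfb rose (0.32). Of 19 TGF-beta pathway genes 6 fell and 2 rose. The ligand Tgfb3 stood at 148, 145 and 143 against 98.9, 95.6 and 95.6 CPM (-0.58, adjusted p = 1.44e-10), and Tgfbi, a matrix protein named for its induction by TGF-beta, rose from 2.20 ± 0.358 to 3.93 ± 1.02 CPM (0.61). Of 20 BMP pathway genes 4 fell, with Gdf6 and the ligand trap Fst (-0.38) the largest, and Smad1 rose (0.22). The share of BMP pathway genes called was close to the 21.2% of all tested genes. Of 10 genes of IGF-binding proteins and stanniocalcins 4 fell and 2 rose. Igfbp5 stood at 4.69, 4.72 and 3.94 against 1.09, 1.57 and 1.76 CPM (-1.15), and Pappa, the protease that releases IGF from Igfbp4, fell from 10.9 ± 1.38 to 7.14 ± 0.809 CPM (-0.54). Igfbp4 fell with it, while Stc2, which inhibits Pappa, rose from 17.7 ± 0.818 to 22.1 ± 2.16 CPM (0.30), a call lost after quantile normalization and without library 1 or 2 of scrambled E2 or library 1 or 3 of siCYP1B1 E2. The call of Vegfb was lost without library 1 of siCYP1B1 E2 and that of Tgfbi without library 3.

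Cholesterol synthesis genes were lower: 15 of 23 fell and 0 rose, with a median of -0.20. Hmgcs1, the synthase ahead of HMG-CoA reductase, stood at 353, 335 and 346 against 272, 285 and 273 CPM (log2 -0.32, adjusted p = 6.89e-06). It was lower in every siCYP1B1 library than in any scrambled library. Idi1, the isomerase of isoprenoid precursors, fell from 171 ± 10.6 to 136 ± 4.50 CPM (-0.33), and the sterol reductase gene Tm7sf2 from 6.26 ± 0.427 to 4.08 ± 0.492 CPM (-0.52). In vehicle 8 of these 23 genes were lower and 0 higher, and in 16aOHE 6 were lower and 1 higher, but the difference between arms passed for 0 of the genes. Of 29 fatty acid genes 6 fell, among them the desaturase Fads2 (-0.34) and the lipase Lpl (571 ± 20.1 to 455 ± 16.97 CPM, -0.33), and 3 rose, among them the nuclear receptor gene Pparg (8.07 ± 0.407 to 11.7 ± 0.977 CPM, 0.48) and Cpt1a, which carries fatty acids into mitochondria (0.32). The share of this list called was 31.0%, against 21.2% of all tested genes. Its share of rises was close to the 11.4% of all tested genes called higher.

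**Figure D4:**
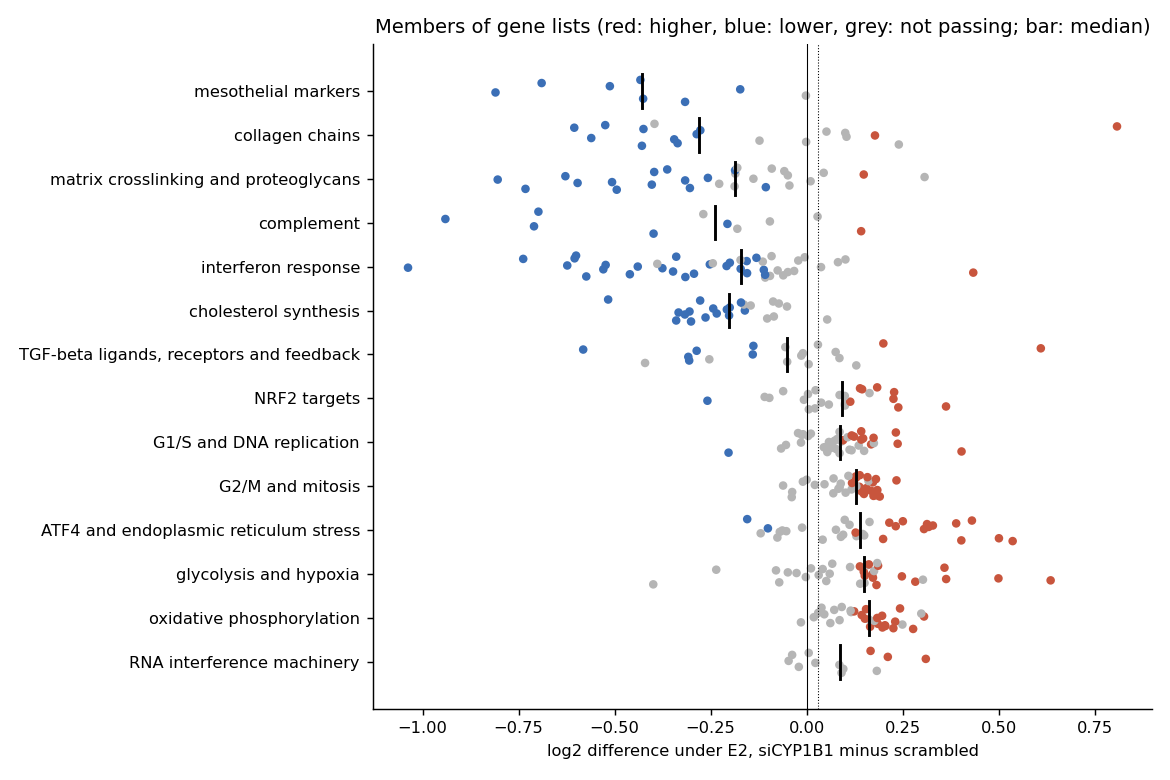
Log2 difference under E2 (siCYP1B1 minus scrambled) of each tested member of 14 gene lists, with members called higher in red, called lower in blue and not passing in grey; the black bar is the list's median and the dotted line the median of all genes (0.03). Medians run from -0.43 for mesothelial markers to 0.16 for oxidative phosphorylation.

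Genes of energy supply were slightly higher. Among 34 genes of glycolysis and hypoxia, 14 rose and 0 fell, with a median of 0.15. Pfkp, a phosphofructokinase, stood at 127, 120 and 121 against 154, 158 and 161 CPM (log2 0.36, adjusted p = 4.90e-07), and Ero1l, an oxidase of the endoplasmic reticulum that hypoxia induces, at 291, 298 and 304 against 396, 378 and 375 CPM (0.36, adjusted p = 3.16e-07). Gapdh also passed (24.4 ± 7.85 to 33.7 ± 3.04 CPM), but its many pseudogenes make its level uncertain, and the call was lost in 8 settings, among them those without library 2 of scrambled E2 or without any 1 of the siCYP1B1 libraries. Of 31 oxidative phosphorylation genes 16 rose and 0 fell, with a median of 0.16. Atp5a1, of the ATP synthase, rose from 647 ± 9.82 to 785 ± 19.8 CPM (0.28), Uqcrc1, of complex III, from 185 ± 2.31 to 219 ± 7.31 CPM (0.24) and Ndufb5, of complex I, from 40.0 ± 2.76 to 49.6 ± 2.05 CPM (0.31). The count fell from 16 to 10 without library 2 of scrambled E2.

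Ribosomal protein genes, which depend on how reads of near-identical pseudogenes were assigned, moved in the same direction. Of 21 such genes 9 rose and 0 fell, with a median of 0.21, and 5 rose without library 2 of scrambled E2. Their summed level was 4001 to 4372 CPM in scrambled and 4809 to 4864 CPM in siCYP1B1 libraries. Rpl8 stood at 998 ± 21.4 against 1190 ± 5.23 CPM (log2 0.25) and Rps9 at 324 ± 9.89 against 391 ± 8.54 CPM (0.27). Of 3 nuclear-retained RNAs 0 passed, and their sum was 438 to 562 against 441 to 790 CPM. The part of RNA quality or read assignment in the small rises of ribosomal protein and other genes was not tested.

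Cell cycle genes rose in part. Of 35 G2/M and mitosis genes 18 were higher and 0 lower, with a median of 0.13. Cdc20, an activator of the anaphase-promoting complex, stood at 218, 212 and 210 against 246, 235 and 247 CPM (log2 0.18, adjusted p = 0.00125), and the mitotic kinase Aurka at 92.7, 84.4 and 90.2 against 101, 98.8 and 106 CPM (0.19, adjusted p = 0.00130). These groups did not overlap, though the gaps were narrow. The letters TTTGAA, known as the cell cycle homology region, were in 13.98% of the promoters of tested genes and in 20 of 29 matched G2/M genes (11 of 15 higher genes and 9 of 14 that did not pass). Of 38 G1/S and replication genes 11 rose and 1 fell, with a median of 0.09. Ccne1, cyclin E1, stood at 93.3, 90.9 and 95.8 against 127, 125 and 120 CPM (0.40, adjusted p = 9.16e-07), and Rrm2, a subunit of ribonucleotide reductase, rose from 499 ± 14.8 to 586 ± 3.01 CPM (0.23), while cyclin D2, Ccnd2, fell (-0.20, lost without library 1 of siCYP1B1 E2). The number of higher G1/S genes was 7 with median-of-ratios factors, and 7 without library 1 or without library 2 of siCYP1B1 E2.

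Of 32 ATF4 and endoplasmic reticulum stress genes 14 rose and 2 fell, with a median of 0.14. Atf5, a transcription factor of this response, stood at 126, 117 and 127 against 178, 182 and 166 CPM (log2 0.50, adjusted p = 1.44e-07). Aldh1l2, of mitochondrial folate metabolism, stood at 34.1, 32.6 and 31.4 against 47.1, 51.0 and 45.7 CPM (0.54, adjusted p = 6.64e-05), and asparagine synthetase, Asns, at 76.9, 70.9 and 79.5 against 100.1, 104.7 and 96.5 CPM (0.40, adjusted p = 1.40e-05). All 3 were higher in every siCYP1B1 library. Trib3, a pseudokinase induced by ATF4, rose from 19.4 ± 0.948 to 26.5 ± 2.54 CPM (0.43). The 2 that fell were Xbp1 (-0.15) and Pdia4 (-0.10), genes of endoplasmic reticulum folding named because they were the only falls. Of the list's other genes of endoplasmic reticulum folding and quality control, only Herpud1 (0.13) rose. Hspa5 (-0.05), Hsp90b1 (-0.07), Hyou1 (-0.06), Calr (0.09) and Manf (0.08) did not pass, and these values are given after they were seen.

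Of 24 NRF2 target genes, which respond to oxidative stress, 8 rose and 1 fell, with a median of 0.09. The antioxidant response element was in 7 of 19 matched promoters of this list (1 of 6 higher genes and 6 of 13 that did not pass), against 17.05% of tested genes. The ferritin genes Ftl1 (644 ± 114 to 820 ± 31.3 CPM, log2 0.36) and Fth1 (1520.2 ± 40.6 to 1794 ± 26.1 CPM, 0.24) were among the rises, and both have near-identical copies. Sqstm1, an autophagy receptor, rose from 755 ± 15.6 to 885 ± 9.52 CPM (0.23). Hmox1 (0.23) and Txnrd1 (0.18) also rose, while Nqo1 (-0.11), Srxn1 (-0.06), Gclc (0.06) and Gclm (0.10) were among the 15 that did not pass. These 6 values are given after they were seen. The share of the list called was 37.5%, against 21.2% of all tested genes.

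Of 23 genes of iron and heme handling 4 rose and 3 fell, with a median of 0.09. The share called was 30.4%, against 21.2% of all tested genes. The ferritin genes, whose levels are uncertain, are counted among the rises here too. Tfrc, the receptor that takes up transferrin, stood at 65.2, 67.8 and 71.3 against 94.1, 104.7 and 96.9 CPM (0.53, adjusted p = 4.05e-07), while Cp, the copper-bound iron oxidase ceruloplasmin, fell from 97.7 ± 8.28 to 59.0 ± 4.75 CPM (-0.72).

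Of 12 genes of the RNA interference machinery 3 rose, Tarbp2 (0.31), Tnrc6a (0.21) and Xpo5 (0.17), and 0 fell, with Tarbp2 losing its call without library 2 or 3 of scrambled E2 or library 1 of siCYP1B1 E2. In either direction, the share of this list called was close to the 21.2% of all tested genes (11.4% higher and 9.81% lower).

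The same siRNA contrast was measured without E2 and in 16aOHE, in libraries of their own. In vehicle 2428 of the same 11831 genes passed (20.5%, of which 1355, or 11.5%, were higher and 1073, or 9.07%, lower), and in 16aOHE 2329 (19.7%, of which 1228, or 10.4%, were higher and 1101, or 9.31%, lower). Of the 2511 genes called under E2, 1572 were also called in vehicle, which is 62.6% of the E2 calls and 64.7% of the vehicle calls, and all 1572 in the same direction. In 16aOHE 1535 were called again (61.1% of the E2 calls and 65.9% of those in 16aOHE), 2 of them in the opposite direction. Across genes, which are not independent replicates, Pearson's r of the log2 differences was 0.77 between E2 and vehicle and 0.72 between E2 and 16aOHE. Angptl7 differed by -1.92 under E2, -1.84 in vehicle and -1.61 in 16aOHE, Iigp1 by -1.04, -0.89 and -0.87, and Usp43 by 1.04, 1.11 and 0.90.

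**Figure D5:**
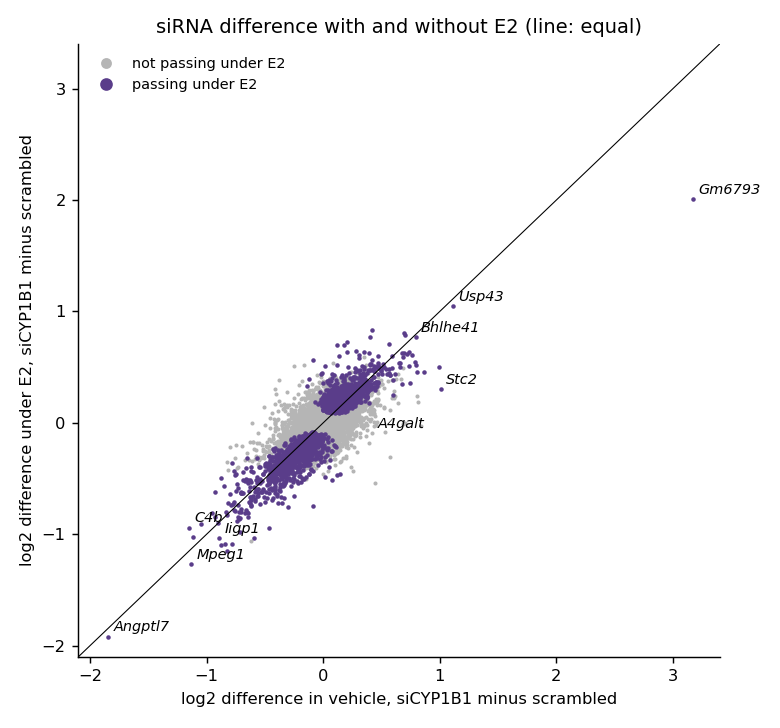
Log2 difference siCYP1B1 minus scrambled under E2 (vertical axis) against that in vehicle (horizontal axis), 1 point per gene, with genes passing under E2 in purple and a line where both are equal. Most named genes lie near the line, such as Angptl7 (-1.92 and -1.84), while Stc2 (0.30 and 1.01) lies below it.

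The test of the difference itself, between the siRNA effect under E2 and that in vehicle, passed for 0 of 11831 genes (0% called, smallest adjusted p = 0.388, and 467 genes with an unadjusted p under 0.05). Against 16aOHE it passed for 0 genes as well (smallest adjusted p = 0.386, and 501 with an unadjusted p under 0.05). The median SE was 0.0903 for these differences, against 0.0638 for the effect under E2. A small dependence on the agent would thus not have been detectable. For Cyp1b1 the difference from vehicle was -0.02 with a 95% interval of -0.12 to 0.08, and for Angptl7 -0.08 with an interval of -0.42 to 0.27.

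Single genes at the head of these lists were picked after their values were seen, by the smallest unadjusted p. Stc2 had the smallest against vehicle, with a rise of 0.30 under E2 and of 1.01 in vehicle (difference -0.71, 95% interval -0.99 to -0.43, adjusted p = 0.388). Its scrambled level was 17.7 CPM under E2 and 5.605 CPM in vehicle. A4galt, which makes the globotriaosyl glycolipid, was at 22.3 ± 1.26 against 20.8 ± 1.30 CPM under E2 and at 7.84 ± 0.442 against 10.8 ± 0.332 CPM in vehicle (difference -0.52, adjusted p = 0.390). Neither difference passed.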

How the data were processed

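The authors deposited 1 table of CPM values for 18 libraries, with an offset of 1e-04 that was subtracted here. TopHat2, Partek and mm10 are named per the submitters' processing notes, with no version, annotation, strand setting or filter given in the sources used here. Low values fell on steps of 1 read, which gave the depth (94.2% to 95.0% of values whole within 0.1 reads); the values were not treated as counts. Genes averaging 1 CPM or more in the 6 E2 libraries were tested on log2(CPM + 1) with limma 3.58.1 in R 4.3.3 (1 coefficient per group, 18 libraries, eBayes with trend, 12 residual degrees of freedom), adjusted by Benjamini-Hochberg within each contrast, threshold 0.05. This procedure was tested on simulated data. Replicate numbers follow accession order and serve only as names. Strand of counting is not given, so overlapping and antisense genes cannot be told apart. Serpinb9, Ifit3, Iigp1, C4b and ribosomal, ferritin and Gapdh genes have near-identical copies and are uncertain.

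The comparison, gene lists and named genes were chosen with earlier results of these data known. Named were Cyp1b1, Esr1, Esrra, up to 15 genes per direction with the largest difference among called genes whose groups do not overlap, and up to 4 passing members per list with the largest difference; predicted genes, small RNAs and pseudogenes were left out, and other members are given as counts or named as exceptions. Some genes this rule names are not reported here. Stops in the deposited table were reduced by 1, after which 56.7% of the 14902 matched symbols had the RefSeq gene end. 3′ UTRs came from GENCODE M21 on GRCm38, taking for each gene the longest among its protein-coding transcripts.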

Additional observations from a re-analysis of the deposited data

How the results depend on the processing

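No paired analysis was possible because the labels carry no replicate numbers. The number of genes called under E2, 2511, was 2505 and 2524 with pseudocounts of 0.1 and 5, 2337 with no filter, 2448 with a limit of 5 CPM, 2506 with the limit over all 18 libraries, 2259 with median-of-ratios factors, 2410 with quantile normalization, 2197 with only the groups of the contrast and 2276 without the trend. Leaving out each library in turn gave 1803 to 2175 calls, 899 to 1177 higher and 904 to 1053 lower, with the lowest count of higher genes (899) without library 1 of siCYP1B1 E2. The differences between arms gave 0 calls under each of these settings. Of 147 named genes none changed direction under any setting; 21 lost their call without library 1 of siCYP1B1 E2, 19 without library 2 of scrambled E2, and at most 8 under the settings that kept all libraries. Cyp1b1 passed under every setting (log2 -0.22 to -0.18). Higher p53 target genes numbered 6 with the deposited CPM, 3 with median-of-ratios factors and 2 without library 1 of siCYP1B1 E2. With 3 libraries per group and 22.1 to 26.7 reads per CPM, genes near 1 CPM rest on few reads.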

Other observations

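Further gene lists are given as counts, beside the 21.2% of all tested genes that were called (11.4% higher and 9.81% lower). Of 22 p53 target genes 6 rose and 1 fell, with a median of 0.05, and Sesn2, a stress-induced regulator of mTORC1, rose most (179 ± 5.99 to 223 ± 4.23 CPM, log2 0.31, adjusted p = 7.39e-07). Of 12 Notch genes 2 rose and 2 fell: the receptor Notch1 stood at 191, 217 and 166 against 269, 239 and 252 CPM (0.41, adjusted p = 0.00117), while Lfng, which glycosylates Notch receptors, fell from 51.7 ± 1.96 to 39.4 ± 0.549 CPM (-0.38). Of 18 circadian clock genes 3 rose and 0 fell, namely Bhlhe41, the heme-binding repressor Nr1d1 (90.6 ± 6.57 to 127 ± 6.98 CPM, 0.49) and the output factor Dbp (66.1 ± 2.56 to 84.6 ± 3.10 CPM, 0.35), and the share called, 16.7%, was below that of all genes. The E-box CACGTG was in 5 of 15 matched clock promoters, against 11.996% of tested genes.

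Of 22 immediate early genes 4 rose and 2 fell (27.3% called), with Fosl1, a subunit of AP-1, the largest (26.1 ± 2.11 to 36.6 ± 2.45 CPM, log2 0.48). Of 15 YAP target genes 4 fell and 1 rose, and Ctgf, a matricellular protein, fell from 99.3 ± 11.9 to 70.2 ± 6.08 CPM (-0.49). Of 10 genes of metallothioneins and zinc transport 3 fell, all of them zinc transporters (Slc39a10, -0.30, Slc39a6, -0.18, and Slc30a1, -0.17). The metal response element TGCNCNC was in 8 of 8 matched promoters of that list and in 64.4% of tested genes. Of 7 imprinted growth genes Mest and Peg3 (-0.14) fell and Plagl1 rose from 1.67 ± 0.117 to 3.11 ± 0.378 CPM (0.62). Of 13 serpins 3 fell and 2 rose, and of 5 angiopoietin and angiopoietin-like genes Angptl7 and Angptl2 (-0.16) fell. The calls of Angptl2 and Peg3 were each lost without library 2 of scrambled E2 and without library 1 or 3 of siCYP1B1 E2, that of Angptl2 also without library 1 of scrambled E2 and that of Peg3 without library 2 of siCYP1B1 E2.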
